A study of Mus musculus with 6 samples.

Results

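The Notch pathway was followed in cultured mouse liver progenitor-like cells through 10 genes: the receptors Notch1, Notch2 and Notch3, the ligands Jag1, Jag2 and Dll1, the transcription factor Rbpj, and the target genes Hes1, Hey1 and Nrarp. They were chosen by symbol, and all 10 were found among the 20573 gene symbols that the 6 deposited count tables share. None of them was removed by the filter on low counts in any comparison.

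Liver progenitor-like cells (LPCs) are dividing epithelial cells obtained by culture of adult liver cells, and 3 groups of them, each with 2 libraries, were compared by sequencing of polyadenylated RNA. Bec_LPCs grew from intrahepatic bile duct pieces of WT mice that were digested, plated in matrigel, kept for 1 to 2 passages and sorted (for Epcam, per the design text). NPC_LPCs grew from non-parenchymal cells (all liver cells but the hepatocytes) of AlbCreERT/R26GFP mice, in which the albumin gene's regulatory sequence drives an inducible Cre. Hep_LPCs grew from hepatocytes of ROSA26tdTomato mice given AAV8-TBG-Cre, a virus that drives Cre from a hepatocyte promoter. All 3 groups were C57BL/6, labelled 6 to 8 weeks old (8 weeks in the growth protocol of NPC_LPCs and Hep_LPCs), and all were cultured in Transition and Expansion Medium (TEM). The growth protocol names the difference between Hep_LPCs and NPC_LPCs as the purpose of sequencing those libraries. Cell source cannot be told apart from mouse line and virus in that comparison, nor from genotype, dissection, sorting and the way the tables were made in the comparisons with Bec_LPCs.

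Notch receptors are membrane proteins that are cut after they bind a Jagged or Delta-like ligand on a neighbouring cell. The freed intracellular part enters the nucleus and, with the DNA-binding protein encoded by Rbpj and a Mastermind coactivator, switches on targets such as the repressors Hes1 and Hey1 and the feedback inhibitor Nrarp. In the liver the pathway is known for its part in bile duct formation, and mutations of JAG1 or NOTCH2 cause Alagille syndrome, in which bile ducts are too few.

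Total reads were 17575998 to 22985844 per library, and 3 reads of a library came to 0.127 to 0.178 CPM, the read count scaled to a common library size. Library sizes for CPM were adjusted by the trimmed mean of M values (TMM), and mean ± SD is given over n = 2 libraries. Nothing in the labels tells whether the replicates of a group came from separate cultures or mice, so the tests reflect the spread of these libraries alone, which may be technical. That spread was unequal: the chi-square per degree of freedom between replicates over genes was 5.52 in Bec_LPCs, 111 in NPC_LPCs and 92.5 in Hep_LPCs. Hep_LPCs replicate 2 stood apart from the rest in the Y-linked gene Ddx3y, at 1 read against 1032 to 2370 in the other 5 libraries, so values without this library stand beside the calls that rest on it.

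The window before the start of a gene is where RBPJ and other factors can bind. Promoter windows of 250 bases before the RefSeq start (GRCm38.p6) were at hand for 8 of the 10 members, in 10 windows. None was at hand for Hes1 and Hey1, so whether these hold the core was not examined. The RBPJ core TGGGAA, read on both strands (TTCCCA on the other), was in no window of Notch1, Notch2, Notch3, Jag1, Jag2, Dll1 or Nrarp. Rbpj held it 2 times in 1 window, 149 bases before the start and, on the other strand, 65 bases before it, and its second, overlapping window holds the latter of these again. For scale, 21.6% of all 32841 such windows hold the core at least once. Matches are a description of these letters and show no binding. The stretches below are printed 5′ to 3′, without bases that GENCODE M21 puts in an exon. They belong to the member that differed most between groups (Jag1, chr2:137116645-137116770, minus strand), the feedback inhibitor (Nrarp, chr2:25180508-25180757, plus strand) and the only 1 of these 8 members with the core (Rbpj, chr5:53590096-53590213, plus strand). Capitals mark the core, and the first 2 stretches have none.
Jag1 promoter: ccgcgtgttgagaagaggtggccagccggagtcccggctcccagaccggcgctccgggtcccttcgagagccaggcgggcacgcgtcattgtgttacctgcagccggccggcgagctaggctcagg
Nrarp promoter: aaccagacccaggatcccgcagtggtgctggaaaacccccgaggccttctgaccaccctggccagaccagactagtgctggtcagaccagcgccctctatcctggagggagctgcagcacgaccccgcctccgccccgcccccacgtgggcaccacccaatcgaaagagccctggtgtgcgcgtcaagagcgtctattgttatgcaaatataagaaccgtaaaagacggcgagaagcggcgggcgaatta
Rbpj promoter: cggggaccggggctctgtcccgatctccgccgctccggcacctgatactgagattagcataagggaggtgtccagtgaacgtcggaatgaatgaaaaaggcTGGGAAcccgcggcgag

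Jag1 was the member with the highest level per kilobase of exon in Bec_LPCs and NPC_LPCs, and Hes1 was the highest in Hep_LPCs. In the 2 Bec_LPCs libraries Jag1 stood at 111 and 115 CPM per exonic kilobase and Hes1 at 41.2 and 36.8. In the 2 Hep_LPCs libraries Hes1 stood at 67.7 and 103 and Jag1 at 17.2 and 11.9. The order of these 2 genes thus turned between the groups, also with the length of the longest coding transcript. In the FPKM values, which the authors deposited for NPC_LPCs and Hep_LPCs alone, Hes1 (18.3 and 27.4) was the highest member in NPC_LPCs as well, and Jag1 was at 14.4 and 27.4. Dll1, Hey1 and Notch3 were the lowest members in Hep_LPCs, and Dll1 and Hey1 in the other 2 groups, on each of these scales. The plot of all 10 members by library shows the levels per gene.

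**Figure D1:**
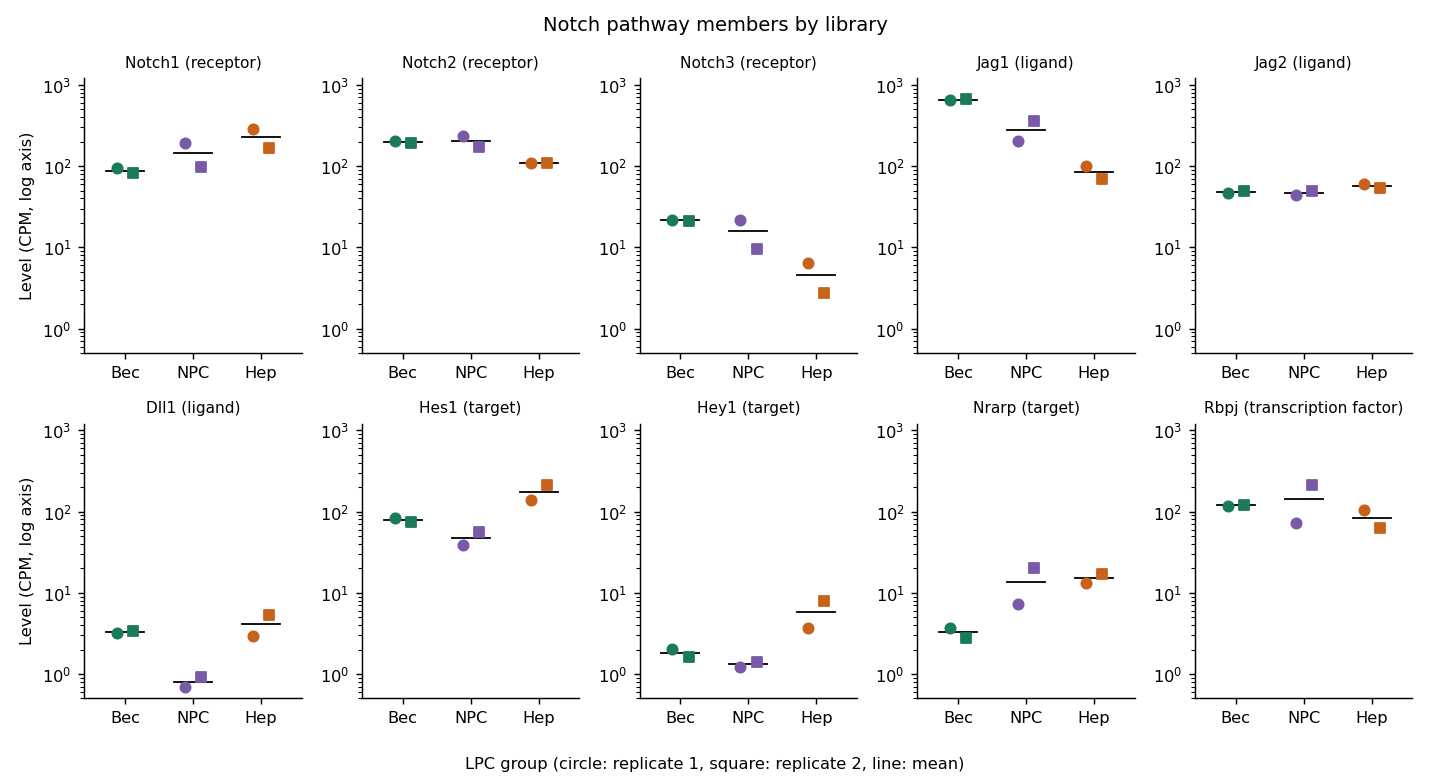
Levels of the 10 members in CPM (log axis) in each library, with a circle for replicate 1, a square for replicate 2 and a line for the group mean (n = 2). Jag1 stands at 648 and 671 CPM in Bec_LPCs and at 100 and 69.1 CPM in Hep_LPCs, while Hes1 is highest in Hep_LPCs, at 138 and 210 CPM.

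Among the receptors, Notch1 was higher in Hep_LPCs than in Bec_LPCs, and Notch2 was lower. Notch1 (chr2:26457903-26516663, minus strand, mm10) was at 93.7 and 82.6 CPM in Bec_LPCs, 191 and 98.1 CPM in NPC_LPCs and 289 and 166 CPM in Hep_LPCs. Both Bec_LPCs libraries lay below the rest, and the NPC_LPCs and Hep_LPCs libraries overlapped. Notch2 (chr3:98013527-98150361, plus strand), the receptor mutated in some patients with Alagille syndrome, was at 201 and 190 CPM in Bec_LPCs, 237 and 170 CPM in NPC_LPCs and 108 and 110 CPM in Hep_LPCs. Both Hep_LPCs libraries were low, and the Bec_LPCs values lay between the 2 NPC_LPCs values. Notch3 (chr17:32120820-32166852, minus strand), a receptor also known from vascular smooth muscle and pericytes, was at 21.9 and 21.3 CPM in Bec_LPCs, 21.9 and 9.45 CPM in NPC_LPCs and 6.32 and 2.73 CPM in Hep_LPCs. Hep_LPCs were again lowest, and 1 NPC_LPCs library matched Bec_LPCs while the other lay between the groups.

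Of the ligands, Jag1 was the one whose 3 groups stood fully apart. Jag1 (chr2:137081456-137116644, minus strand) was at 648 and 671 CPM in Bec_LPCs, 201 and 356 CPM in NPC_LPCs and 100 and 69.1 CPM in Hep_LPCs. Each group lay wholly below the one before it. Of all genes tested, 70% stood apart between Bec_LPCs and NPC_LPCs, and 56.6% between NPC_LPCs and Hep_LPCs. Jag2 (chr12:112907819-112929776, minus strand), the other Jagged ligand, was at 47.1 and 50 CPM in Bec_LPCs, 43.8 and 49.6 CPM in NPC_LPCs and 60.2 and 54.4 CPM in Hep_LPCs. Its Hep_LPCs libraries lay slightly above the others, which overlapped. Dll1 (chr17:15367354-15376872, minus strand), a Delta-like ligand, was low throughout, with 76 and 79 reads in Bec_LPCs, 12 and 18 reads in NPC_LPCs and 50 and 89 reads in Hep_LPCs. Its levels were 3.3 ± 0.127 CPM, 0.804 ± 0.157 CPM and 4.1 ± 1.66 CPM in that order, so NPC_LPCs lay below both other groups, which overlapped.

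Rbpj (chr5:53466152-53657362, plus strand), the DNA-binding partner of the cut receptors, was at 116 and 122 CPM in Bec_LPCs, 71.4 and 211 CPM in NPC_LPCs and 105 and 62.6 CPM in Hep_LPCs. The NPC_LPCs replicates differed 2.96-fold, more than the group means did. Rbpj has a near-identical copy elsewhere in the genome, Rbpj-ps3, alike at 99.7% over 1441 bases, and the sources used here do not give how reads shared with it were counted.

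The targets Hes1 and Hey1 shared 1 order of the groups, Hep_LPCs over Bec_LPCs over NPC_LPCs, with no overlap between neighbours. With 2 libraries a group this is common: 77.6% of genes tested stood apart between Hep_LPCs and Bec_LPCs, and 70% between Bec_LPCs and NPC_LPCs. Hes1 (chr16:30064384-30067796, plus strand), a repressor, was at 83.9 and 74.9 CPM in Bec_LPCs, 38.7 and 56.8 CPM in NPC_LPCs and 138 and 210 CPM in Hep_LPCs. Hey1 (chr3:8663359-8667256, minus strand), a related repressor, was at a far lower level, with 48 and 38 reads in Bec_LPCs, 21 and 28 reads in NPC_LPCs and 63 and 134 reads in Hep_LPCs. These reads came to 1.83 ± 0.28 CPM, 1.32 ± 0.149 CPM and 5.82 ± 3.01 CPM. Nrarp (chr2:25180758-25183339, plus strand), whose protein limits the Notch transcription complex, was at 3.71 and 2.79 CPM in Bec_LPCs, 7.22 and 20.1 CPM in NPC_LPCs and 13.2 and 16.8 CPM in Hep_LPCs. Bec_LPCs lay below both other groups, and the Hep_LPCs values lay between the 2 NPC_LPCs values. An antisense gene, Gm38287, covers 79.4% of the Nrarp exon, and since no source used here gives the strand setting of the counting, its reads cannot be told apart from those of Nrarp.

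Between Bec_LPCs and Hep_LPCs, Notch2, Notch3 and Jag1 were higher in Bec_LPCs, and Notch1, Hes1 and Nrarp were higher in Hep_LPCs. These 6 of the 10 members passed the test (edgeR's quasi-likelihood test with Benjamini-Hochberg adjustment over all genes tested), against 33.4% of the 12868 genes tested (16.1% higher in Bec_LPCs and 17.2% lower). At an unadjusted p under 0.05 the count was 7 of 10, against 47.3% of genes, and libraries of the groups stood apart for 9 of 10 members, against 77.6% of genes. Fold changes are log2 values ± SE of Bec_LPCs minus Hep_LPCs, and in these bulk samples fewer cells with a transcript and less RNA per cell cannot be told apart. Jag1 was 7.8-fold higher in Bec_LPCs (2.96 ± 0.34, adjusted p = 0.00426). Notch3 followed at 2.26 ± 0.55 (adjusted p = 0.0287) and Notch2 at 0.84 ± 0.20 (adjusted p = 0.0261). In the other direction stood Nrarp at -2.20 ± 0.53 (adjusted p = 0.0275), Notch1 at -1.37 ± 0.40 (adjusted p = 0.045) and Hes1 at -1.13 ± 0.28 (adjusted p = 0.0303). Hey1, at -1.67 ± 0.53, was apart between the groups and missed the threshold (adjusted p = 0.0576). Jag2 (-0.24 ± 0.16, adjusted p = 0.296), Dll1 (-0.32 ± 0.48, adjusted p = 0.637) and Rbpj (0.50 ± 0.52, adjusted p = 0.477) did not pass. The median over the 10 members was -0.28, against 0.03 over all genes.

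The Jag1 call was the one that held in all 15 alternatives that gave it a value (2.72 to 3.25, adjusted p at most 0.0258). Without Hep_LPCs replicate 2, Notch1 (-1.71, adjusted p = 0.0424) and Jag1 (2.72, adjusted p = 0.0182) were called, while Notch2 (0.86, adjusted p = 0.0617), Notch3 (1.77, adjusted p = 0.0842), Hes1 (-0.80, adjusted p = 0.0831) and Nrarp (-2.02, adjusted p = 0.0817) were not. Without Hep_LPCs replicate 1, Notch3 (2.98), Jag1 (3.25), Hes1 (-1.40) and Hey1 (-2.12) were called. Without either Bec_LPCs replicate Jag1 alone was called. Calls over all genes fell steeply in those fits too, so this loss is not particular to the members. The Notch1 call also ended when library sizes were used without TMM (adjusted p = 0.0633).

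Between Hep_LPCs and NPC_LPCs, Hes1 (higher in Hep_LPCs) and Jag1 (lower) had the smallest p-values of the members, but no member passed the test. The count was 0 of 10, against 0.795% of the 12331 genes tested (0.349% higher in Hep_LPCs and 0.446% lower). At an unadjusted p under 0.05 it was 6 of 10, against 22.2% of genes. DESeq2's Wald test called 3 (Hes1 higher, Notch2 and Jag1 lower), against 12.3% of genes, and limma-voom called 0, against 0.0405% of genes. The libraries of the 2 groups stood apart for 7 of 10 members, against 56.6% of genes. Hes1 had a log2 fold change, Hep_LPCs minus NPC_LPCs, of 1.84 ± 0.34 (adjusted p = 0.0747) and Jag1 of -1.74 ± 0.38 (adjusted p = 0.0887). Fold changes of over 2-fold were also fitted for Dll1 (2.32 ± 0.70, adjusted p = 0.146), Hey1 (2.12 ± 0.67, adjusted p = 0.156) and Notch3 (-1.80 ± 0.62, adjusted p = 0.177). With a library left out, Hey1 ranged from 1.46 (without Hep_LPCs replicate 2) to 2.58 (without Hep_LPCs replicate 1), and Notch3 from -2.52 (without Hep_LPCs replicate 1) to -1.08 (without NPC_LPCs replicate 1). Notch2 stood at -0.92 ± 0.26 (adjusted p = 0.129). The remaining members, Notch1, Jag2, Nrarp and Rbpj, lay between -0.78 and 0.64 (adjusted p 0.413 to 0.934). The median over the members was 0.19, against -0.00 over all genes. When Hep_LPCs and NPC_LPCs were compared in the fit of all 6 libraries, Notch2, Jag1, Dll1 and Hes1 were called. That fit called 9.9% of all genes tested, so its calls are not to be set against the 0.795% above.

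Bec_LPCs had 2.37 times the Jag1 level and 4.07 times the Dll1 level of NPC_LPCs, and 0.238 times its Nrarp level, but here too no member passed the test. The count was 0 of 10, against 11.3% of the 12868 genes (4.88% higher in Bec_LPCs and 6.44% lower). At an unadjusted p under 0.05 it was 4 of 10, against 31.5% of genes. DESeq2's Wald test called 3 (Jag1 and Dll1 higher, Nrarp lower), against 22.5% of genes, and limma-voom called 1 (Jag1), against 13.8% of genes. The groups' libraries stood apart for 6 of 10 members, against 70% of genes. Dll1 had a log2 fold change, Bec_LPCs minus NPC_LPCs, of 2.02 ± 0.52 (adjusted p = 0.0608), Nrarp of -2.07 ± 0.53 (adjusted p = 0.0618) and Jag1 of 1.24 ± 0.32 (adjusted p = 0.0627). Nrarp was -1.15 without NPC_LPCs replicate 2 (adjusted p = 0.111) and -2.68, and called, without NPC_LPCs replicate 1 (adjusted p = 0.026). Hes1 stood at 0.73 ± 0.28 (adjusted p = 0.143) and Notch1 at -0.71 ± 0.39 (adjusted p = 0.271). The other 5 members lay between -0.25 and 0.47 (adjusted p 0.583 to 0.863), among them Notch2 at -0.06 ± 0.20, whose sign turned to 0.10 with library size alone. The median was 0.26 over the members and 0.01 over all genes. The 3 comparisons share their libraries pairwise, so their values are not independent of each other.

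**Figure D2:**
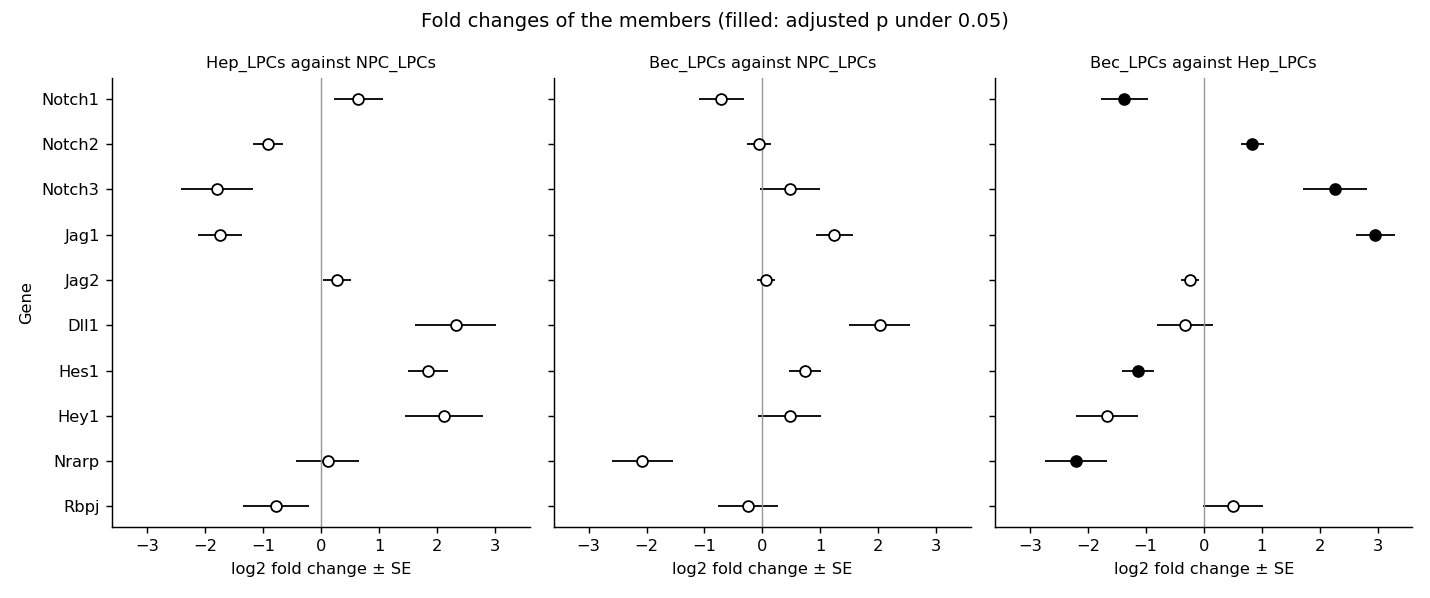
Log2 fold changes ± SE of the 10 members in the 3 comparisons, with filled points at an adjusted p under 0.05 and the first-named group minus the second. The 6 filled points are all in Bec_LPCs against Hep_LPCs, from -2.20 (Nrarp) to 2.96 (Jag1).

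The make-up of the receptors and ligands within a library needs no scaling between libraries, and here it was set per exonic kilobase. Notch2 was the leading receptor in Bec_LPCs and NPC_LPCs and Notch1 in Hep_LPCs. Notch1 made up 23.6% and 22.3% of the 3 receptors in Bec_LPCs, 35.3% and 28.9% in NPC_LPCs and 65.4% and 52.6% in Hep_LPCs. The ratio of Notch1 to Notch2 was 0.354 and 0.33 in Bec_LPCs, 0.612 and 0.437 in NPC_LPCs and 2.04 and 1.15 in Hep_LPCs. It was above 1 in both Hep_LPCs libraries and below 1 in the other 4, and this also held with the longest coding transcript (2.97 and 1.67 in Hep_LPCs, at most 0.894 elsewhere) and with deposited FPKM (2.97 and 1.69 in Hep_LPCs, 0.897 and 0.634 in NPC_LPCs). Notch3 was the smallest of the 3 in every library, at most 10.1%.

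Among the ligands Jag1 made up 93.7% and 93.5% in Bec_LPCs, 84.2% and 89.3% in NPC_LPCs and 64.8% and 56.7% in Hep_LPCs. Jag2 made up 32.6% and 37.3% in Hep_LPCs against 5.7% and 5.83% in Bec_LPCs, with a level of its own that did not pass the test. The ratio of Jag1 to Jag2 was 16.4 and 16 in Bec_LPCs, 5.47 and 8.57 in NPC_LPCs and 1.99 and 1.52 in Hep_LPCs. In Hep_LPCs the order of the 2 ligands depended on the measure, since with deposited FPKM the ratio was 0.605 and 0.438. The deposited FPKM of Jag1 there, 7.36 and 4.94, lay well below its 17.2 and 11.9 CPM per exonic kilobase, while that of Jag2, 12.2 and 11.3, lay above its 8.64 and 7.81. The gene lengths behind the FPKM are not known here, so the ratio from FPKM is uncertain. Dll1 was at most 5.98% of the 3 ligands. For the targets, Hes1 was above Nrarp and Nrarp above Hey1 in every library on each length scale. Hes1 was 28.6 and 34.1 times Nrarp in Bec_LPCs, 6.8 and 3.58 times in NPC_LPCs and 13.2 and 15.8 times in Hep_LPCs, without overlap between the groups, with the reservation on Nrarp given above.

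**Figure D3:**
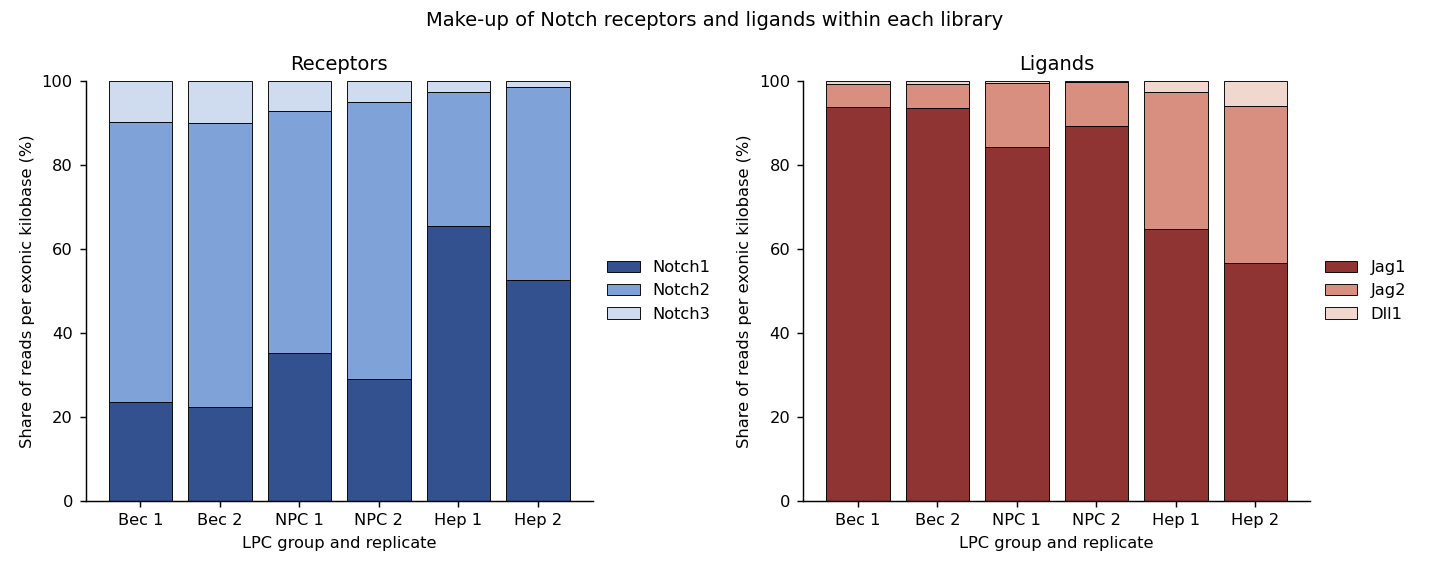
Share (%) of each receptor (left) and ligand (right) in the reads per exonic kilobase of its family, with 1 bar per library. Notch1 holds 65.4% and 52.6% of the receptors in Hep_LPCs, and Jag1 holds 93.7% and 93.5% of the ligands in Bec_LPCs.

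Other genes of the pathway were taken from a list of 57 in 7 roles, of which 46 passed the low-count filter in each comparison. In Bec_LPCs against Hep_LPCs 6 were called higher and 6 lower (median of the 46 tested 0.18). In Bec_LPCs against NPC_LPCs 2 were higher and 3 lower (median -0.31). In Hep_LPCs against NPC_LPCs 1 was higher and 0 lower (median -0.29). These 12, 5 and 1 of 46 stand beside 33.4%, 11.3% and 0.795% of all genes. Calls over all genes also fell steeply without either Bec_LPCs replicate in both comparisons with Bec_LPCs. They were lost without either Hep_LPCs replicate in Hep_LPCs against NPC_LPCs. Without either Bec_LPCs replicate the first count fell from 12 to 2 and the second from 5 to 1. The second was 3 without NPC_LPCs replicate 1 and 9 without either Hep_LPCs replicate, and the third was 2 without NPC_LPCs replicate 1 and 0 without any other library of its fit.

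Mib1, an E3 ubiquitin ligase that drives endocytosis of Notch ligands in the signal-sending cell, was higher in Bec_LPCs than in both other groups. It was at 266 and 264 CPM in Bec_LPCs, 68.7 and 67.8 CPM in NPC_LPCs and 62 and 51.6 CPM in Hep_LPCs. Bec_LPCs stood far above both other groups, by a log2 difference of 1.96 ± 0.17 over NPC_LPCs (adjusted p = 0.00379) and 2.22 ± 0.17 over Hep_LPCs (adjusted p = 0.00163), and both calls held in all 15 alternatives. Of the 13 tested genes of endocytosis and turnover, Neurl3 was lower in Bec_LPCs than in NPC_LPCs (-1.88 ± 0.42, adjusted p = 0.0448) and Hep_LPCs (-1.61 ± 0.42, adjusted p = 0.0329). The Neurl3 calls ended without either Bec_LPCs replicate, the first also without either NPC_LPCs replicate, with library size alone and with the limit on exonic overlap, and the second without Hep_LPCs replicate 2. Fbxw7, whose protein marks the freed Notch fragment for breakdown and which was singled out after its values were seen because it completes the count of 2 higher genes, was higher in Bec_LPCs than in Hep_LPCs (0.65 ± 0.19, adjusted p = 0.0445). Its call ended without either Bec_LPCs replicate, without either Hep_LPCs replicate, with no low-count filter and with the limit on exonic overlap.

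Dlk2, a Delta-like protein that lacks the domain by which Notch ligands activate their receptors, had most of its reads in Hep_LPCs. It had 13 and 12 reads in Bec_LPCs, 22 and 21 reads in NPC_LPCs and 245 and 320 reads in Hep_LPCs. Its level in Hep_LPCs, 16.7 ± 3.28 CPM, was above that in NPC_LPCs by 3.81 ± 0.47 on the log2 scale (adjusted p = 0.0409), and the level in Bec_LPCs was below it (-4.95 ± 0.40, adjusted p = 0.00183). The first call ended without Hep_LPCs replicate 1 (4.01), Hep_LPCs replicate 2 (3.59) or NPC_LPCs replicate 2 (3.70). It also ended with limma-voom (3.78, adjusted p = 0.0677), which called 0.0405% of genes. Over all genes, calls were lost as well without either Hep_LPCs replicate, but not without NPC_LPCs replicate 2. The second Dlk2 call held in all 15 alternatives. The receptor Notch4, at 3.58 to 5.75 CPM in the 6 libraries, was called in no comparison. The ligands Dll3 (0 to 2 reads) and Dll4 (0 to 14 reads) were near 0.

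Enzymes and cofactors of the pathway moved in both directions. Pofut1, which adds O-fucose to the receptors, was at 52.9 ± 2.69 CPM in Bec_LPCs, above NPC_LPCs (1.09 ± 0.17, adjusted p = 0.0217) and Hep_LPCs (0.88 ± 0.17, adjusted p = 0.0153). Rfng, a Fringe enzyme that extends that fucose, was lower in Bec_LPCs than in Hep_LPCs (-1.31 ± 0.24, adjusted p = 0.013). Of the genes that cut the receptors, 10 were tested, and Psen2, a catalytic subunit of gamma-secretase, was higher in Bec_LPCs than in Hep_LPCs (1.24 ± 0.36, adjusted p = 0.0436). Among 7 coactivators, Snw1 was lower in Bec_LPCs than in NPC_LPCs (-1.12 ± 0.19, adjusted p = 0.0239) and Hep_LPCs (-1.51 ± 0.19, adjusted p = 0.00523). Maml2, a Mastermind coactivator, was higher in Bec_LPCs than in Hep_LPCs (0.71 ± 0.17, adjusted p = 0.0281). Among 7 corepressors, Ctbp2 was lower in Bec_LPCs than in NPC_LPCs (-0.76 ± 0.17, adjusted p = 0.0444) and Hep_LPCs (-0.58 ± 0.17, adjusted p = 0.0435), and L3mbtl3 was higher in Bec_LPCs than in Hep_LPCs (0.72 ± 0.21, adjusted p = 0.0437). Each of these calls, from Pofut1 to L3mbtl3, ended when either Bec_LPCs library was left out, as did most calls over all genes. Against Hep_LPCs, those of Psen2, Maml2, Ctbp2 and L3mbtl3 also ended without Hep_LPCs replicate 1, that of L3mbtl3 without Hep_LPCs replicate 2, and that of Ctbp2 with library size alone or no low-count filter. Against NPC_LPCs, the Pofut1 call also ended without NPC_LPCs replicate 1, that of Snw1 without NPC_LPCs replicate 2, and that of Ctbp2 without either and with library size alone. Snw1 was not among the genes kept in the alternative limited to protein-coding genes with at most 25% exonic overlap, so its counts are uncertain. Of 9 further HES and HEY genes 3 were tested and none was called in a comparison, and Hes5, a target used as a readout of Notch activity in other tissues, had 0 to 1 reads.

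**Figure D4:**
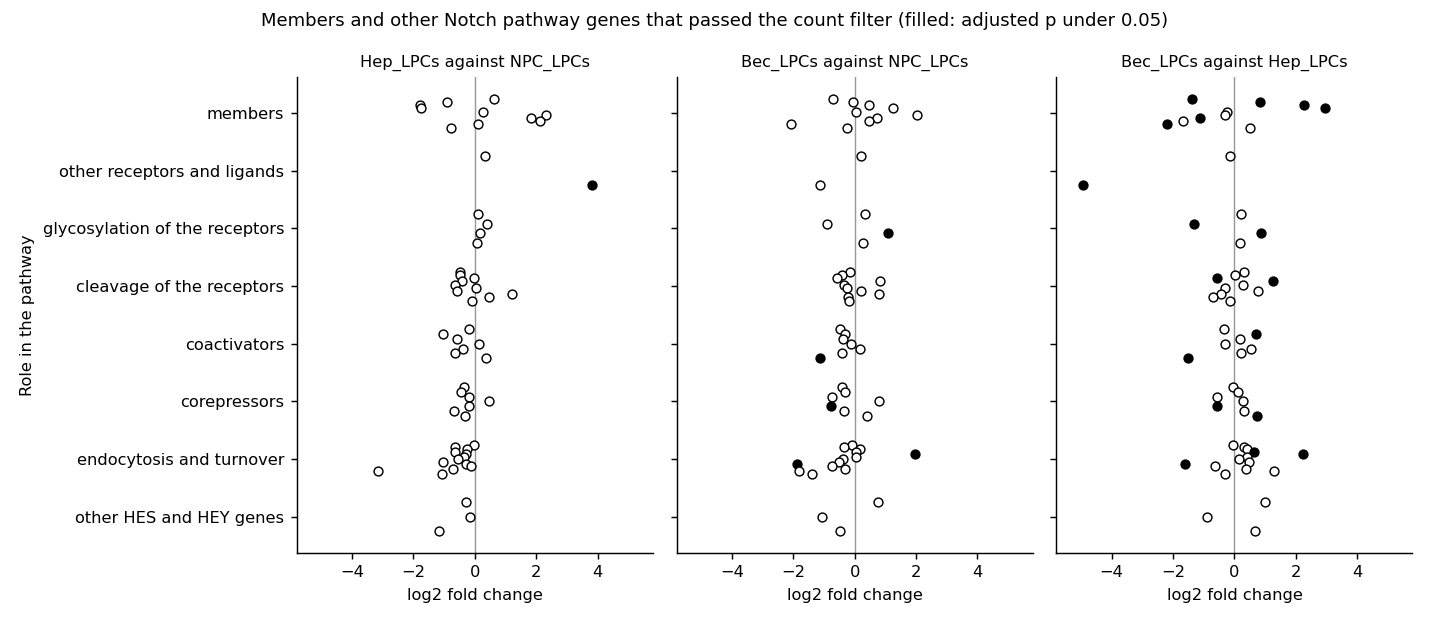
Log2 fold changes of the 10 members and of the 46 tested other pathway genes by role, in the 3 comparisons, with filled points at an adjusted p under 0.05. Outside the members the points farthest from 0 are Dlk2 (-4.95 in Bec_LPCs against Hep_LPCs, 3.81 in Hep_LPCs against NPC_LPCs), and Mib1 is the filled point at 1.96 and 2.22 in the comparisons with Bec_LPCs.

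Markers of other liver cells moved with some of these differences. Mesenchymal and stellate markers, 13 in all, summed to 205 to 246 CPM in Bec_LPCs, 7.56 to 20.7 CPM in NPC_LPCs and 11.3 to 17.3 CPM in Hep_LPCs, and 9, 1 and 3 of the 13 had at least 1 CPM in each library of those groups. Of the 10 tested, 5 were called higher in Bec_LPCs than in NPC_LPCs and 6 higher than in Hep_LPCs, and none lower. Of all genes, 4.88% and 16.1% were called higher in these comparisons. Most calls over all genes ended when either Bec_LPCs library was left out. Without either Bec_LPCs replicate both counts were 0, and without either Hep_LPCs replicate the second was 3. Lrat, which defines stellate cells, was at 0 in Bec_LPCs and NPC_LPCs, as was Thy1 in NPC_LPCs, and Col1a2, Col3a1, Acta2, Lrat and Thy1 were at 0 in Hep_LPCs. Jag1, which such cells can express, was highest in Bec_LPCs as well. Notch3, which they can also express, was at 21.9 and 21.3 CPM in Bec_LPCs. It was also at 21.9 CPM in NPC_LPCs replicate 1, a group where these markers summed to at most 20.7 CPM. The part of such cells in the levels of Jag1 and Notch3 was not tested. The 12 biliary markers summed to 4283 to 5042 CPM in Bec_LPCs, 5614 to 11092 CPM in NPC_LPCs and 3740 to 6086 CPM in Hep_LPCs. Spp1 made up 42.1% to 82.2% of the sum of a group, and Cldn7 was at 0 in NPC_LPCs. Of the 11 tested, 3 were called higher in Bec_LPCs than in NPC_LPCs and 1 lower. Against Hep_LPCs it was 2 higher and 1 lower. Of all genes, 6.44% and 17.2% were called lower. Epcam, the sorting marker of Bec_LPCs, was among the higher both times (59 and 65.7 CPM, against 0.115 to 1.84 CPM in the other groups). A link of these markers to Jag1 was not tested. The 10 hepatocyte markers summed to 141 to 162 CPM in Bec_LPCs, 69 to 79.6 CPM in NPC_LPCs and 300 to 309 CPM in Hep_LPCs, with Hnf4a at 53.9% to 83.7% of the sum of a group, and Cyp2e1 and Tat were at 0 in all 3 groups. Hes1 and Hey1 had the same order of groups as this sum, and a link between them was not tested. The 10 endothelial markers stayed between 2.54 and 7.84 CPM in sum, of which Kdr was the largest part. Macrophage and leukocyte markers (10) summed to 55.2 to 248 CPM, mostly Cd14, with Clec4f at 0 in all 3 groups, and mesothelial markers (6) to 213 to 866 CPM, nearly all Msln.

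The genes whose profile over the 6 libraries was most like that of a called member were found by the root mean square difference of log2 levels, each profile centred on its own mean, among 9267 genes with a mean of at least 10 CPM. Nearest to Jag1 were Trim56 (0.17) and Prxl2c (0.23), against a median of 1.31 over those genes. Nearest to Notch2 were Snx13 (0.06) and Zscan26 (0.07), and nearest to Notch3 were Aox1 (0.17) and Fam171b (0.23). Nearest to Notch1 were Retsat and Glul, both at 0.15. Glul, the glutamine synthetase gene, was at 98 and 86.2 CPM in Bec_LPCs, 210 and 90.3 CPM in NPC_LPCs and 368 and 159 CPM in Hep_LPCs, so in each of the latter groups it was higher in the library where Notch1 was higher. Nearest to Hes1 were Lratd2 (0.16) and Ier2 (0.18), and of the members Hey1 (0.23). For Nrarp, Tuba1a was at 0.29, against a median of 1.06. These values cover 6 libraries in 3 groups and describe likeness of profile alone.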

How the data were processed

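Per the labels' protocols, 6 paired-end libraries of polyadenylated RNA were made with a stranded kit. The submitters' processing notes name mm10 as the build and, as tools, DESeq, HTSeq, Cufflinks, HISAT2 and Trimmomatic. The sources used here give no versions, annotation or strand setting. For each library the authors deposited a table: whole-number counts per gene symbol, and for NPC_LPCs and Hep_LPCs also FPKM, per the file headers. The members and gene lists were chosen with earlier results of these data known.

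Rows without a name (14 in each Bec_LPCs table, 44 and 41 reads, at most 0.000191% of the counts) were left out, and older symbols were updated (16 in the Bec_LPCs tables, 843 in the others). The shared genes held 95.3% to 99.4% of the reads. Bec_LPCs were compared in a fit of all 6 libraries on the 20573 genes shared by the 6 tables, and Hep_LPCs against NPC_LPCs was fitted on those 4 libraries and the 21873 genes their tables share. Levels come from the fit of all 6. Low counts were removed with filterByExpr of edgeR, TMM gave the scaling, and p-values of edgeR's two-sided quasi-likelihood test with robust estimation were adjusted by Benjamini-Hochberg over all genes tested (edgeR 4.0.16, limma 3.58.1, R 4.3.3). A gene is called at an adjusted p under 0.05. The SE of a log2 fold change is its size over the root of the F statistic. Lengths, coordinates (1-based) and overlaps are from GENCODE M21, copies from minimap2 2.31-r1302 (at least 95% identity over 200 bases), and promoters from RefSeq. Named pathway genes are up to 2 per role and comparison by smallest adjusted p, and some genes are not reported here. As alternatives, library sizes were left unscaled or scaled by DESeq2 size factors, the low-count filter was dropped or set to 10 CPM in 2 libraries, and the test was the Wald test of DESeq2 1.42.0 or limma-voom. Others were the replicate number as a block, protein-coding genes with at most 25% exonic overlap, another set of libraries in the fit, limma on log2(FPKM + 1), each library left out and, added after the data were seen, the members without Nrarp and Rbpj. The fits were tested on simulated data.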

Additional observations from a re-analysis of the deposited data

How the results depend on the processing

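Members called in Hep_LPCs against NPC_LPCs were 0 in the reported fit, 2 without the low-count filter, 3 with DESeq2's Wald test, 4 in the fit of all 6 libraries, and 0 to 1 with a library left out (Jag1 without NPC_LPCs replicate 1). In Bec_LPCs against NPC_LPCs they were 0, with 2 under library size alone, 3 with the Wald test, 1 with limma-voom (Jag1), 1 in the fit of the 4 libraries compared (Dll1) and 0 to 1 with a library left out (Nrarp without NPC_LPCs replicate 1, Jag1 without NPC_LPCs replicate 2, Dll1 without either Hep_LPCs replicate). In Bec_LPCs against Hep_LPCs they were 6, with 5 to 7 under the other settings, 1 to 6 with a library left out, and 5 when Nrarp and Rbpj were set aside. As shares of all genes tested, calls in Hep_LPCs against NPC_LPCs were 3.25% without the filter, 12.3% with the Wald test and 9.9% in the fit of all 6. In Bec_LPCs against NPC_LPCs they were 11.9% with library size alone, 22.5% with the Wald test, 13.8% with limma-voom and 19.6% in the fit of 4. In Bec_LPCs against Hep_LPCs, with no library left out, they ran from 24.9% (no filter) to 42% (Wald test). Where a library was left out, the lone sample of its group is assumed to vary like the other groups. Signs turned only for values that were not called. In Hep_LPCs against NPC_LPCs, Nrarp became -0.44 without NPC_LPCs replicate 1 and -0.08 without Hep_LPCs replicate 2, and Rbpj 0.23 without NPC_LPCs replicate 2 (ranges with a library left out -0.44 to 1.05 and -1.35 to 0.23). In Bec_LPCs against NPC_LPCs, Notch2 became 0.10 with library size alone and 0.15 without NPC_LPCs replicate 1, Jag2 -0.08 without NPC_LPCs replicate 1, and Notch3 -0.02 and Rbpj 0.74 without NPC_LPCs replicate 2 (ranges -0.28 to 0.15 for Notch2, -0.08 to 0.15 for Jag2, -0.02 to 1.15 for Notch3 and -0.88 to 0.74 for Rbpj). In Bec_LPCs against Hep_LPCs, Dll1 became 0.17 without Hep_LPCs replicate 2 (range -0.68 to 0.17). All genes called ranged from 0 (without either Hep_LPCs replicate) to 1517 (Wald test) around 98, from 115 (without Bec_LPCs replicate 1) to 2898 (Wald test) around 1457, and from 491 (without Bec_LPCs replicate 2) to 5401 (Wald test) around 4293, in the same order of comparisons. Library size alone moved the median of all genes to 0.17 against NPC_LPCs and 0.21 against Hep_LPCs, and the share of calls that were higher in Bec_LPCs from 43.1% to 61.3% and from 48.3% to 60.9%. The replicate numbers did not pair the samples: the correlation of replicate differences over 12868 genes was 0.134 for Bec_LPCs and NPC_LPCs, -0.071 for Bec_LPCs and Hep_LPCs and -0.041 for NPC_LPCs and Hep_LPCs. With the replicate number as a block the members called stayed at 0, 0 and 6, and all genes called were 128, 770 and 3389. The other pathway genes called went from 1 to 0, from 5 to 4 and from 12 to 7, and mesenchymal markers against NPC_LPCs from 5 to 1. Among the pathway genes named, the block ended the calls of Dlk2 in Hep_LPCs against NPC_LPCs (3.80, adjusted p = 0.0549), Ctbp2 in both comparisons with Bec_LPCs, and Maml2, L3mbtl3 and Fbxw7 in Bec_LPCs against Hep_LPCs. Depth limits Dll1 and Hey1 most, with 12 to 134 reads per library.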
